A study of Homo sapiens with 8 samples.

Results

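The genes described here are 6 Toll-like receptors (TLR1, TLR4, TLR6, TLR7, TLR9 and TLR10), the Toll-like receptor 4 co-receptors LY96 (MD-2) and CD14, and the related receptor CD180 (RP105) with its partner LY86 (MD-1). They were chosen by name, and each is represented by the probe set that the platform annotation pairs with that 1 symbol, taking the highest mean over the arrays where a gene has several. All 10 genes were found, among 17958 genes with such a probe set, and each had 1 probe set only. RNA of 2 human lymphoma lines was hybridised to 8 whole-transcript arrays. KMH2 is a Hodgkin lymphoma line, measured untreated (3 arrays) and after 24 h of glucosamine, an amino sugar (3 arrays), at a dose not given in the sources used here. Ramos is a Burkitt lymphoma line, of germinal centre B-cell type (2 arrays). The labels title both Ramos arrays as controls whereas the series' design assigns glucosamine to 1 of them, so Ramos is used here as a cell line with no treatment assigned. Each group stands for 1 established line, grown under the same culture conditions per the labels.

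Toll-like receptors are membrane receptors that recognise molecules of microbes and signal through adaptor proteins to NF-kappaB and interferon regulatory factors. TLR4 binds lipopolysaccharide together with MD-2, and CD14 hands the lipopolysaccharide over, whereas TLR1 and TLR6 form pairs with TLR2 for bacterial lipoproteins and TLR10 is their close relative. TLR7 and TLR9 lie in endosomes and recognise single-stranded RNA and unmethylated CpG DNA. CD180 resembles the outer part of TLR4 but lacks its signalling domain, is displayed on B cells in complex with MD-1, and takes part in B-cell activation.

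Values are log2 signals as deposited by the authors, so a difference of 1 is a 2.0-fold difference of signal. Array medians over all 33297 probe sets ran from 5.62 to 5.68. Most markers followed the labels of the lines. The mean level of 9 B-cell markers was 6.37 to 6.54 on the KMH2 control arrays and 9.86 to 10.15 on the Ramos arrays, and that of 8 Hodgkin markers was 8.75 to 8.86 and 6.42 to 6.54. Against this, the B-cell marker CR2 was lower in Ramos than in KMH2 control (-1.08) and the Hodgkin marker CCL22 was higher (2.10). Of the KMH2 arrays with the same replicate number, only those numbered 1 stood apart in deviating together. Glucosamine differences are also given by replicate number. In bulk RNA, fewer cells with a transcript and less of it in each cell cannot be told apart.

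The first comparison asked how the 2 lymphoma lines differ in these receptors. All 10 genes differed between Ramos and untreated KMH2, 8 higher and 2 lower in Ramos (limma, adjusted p from 2.15e-09 for CD180 to 0.00025 for TLR9). Across the array 43.8% of 19181 tested probe sets passed the same threshold of 0.05, with 22.7% higher and 21.2% lower. For all 10 genes the arrays of the lines did not overlap, as for 64.1% of probe sets. Each difference was at least 1 log2 unit, a size that 6.45% of probe sets passed upward and 8.45% downward. The median difference of the 10 genes was 2.07 on the log2 scale, against 0.06 over all probe sets. The members were chosen with earlier results of these data known, so these counts describe them and are no test of the list.

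**Figure D1:**
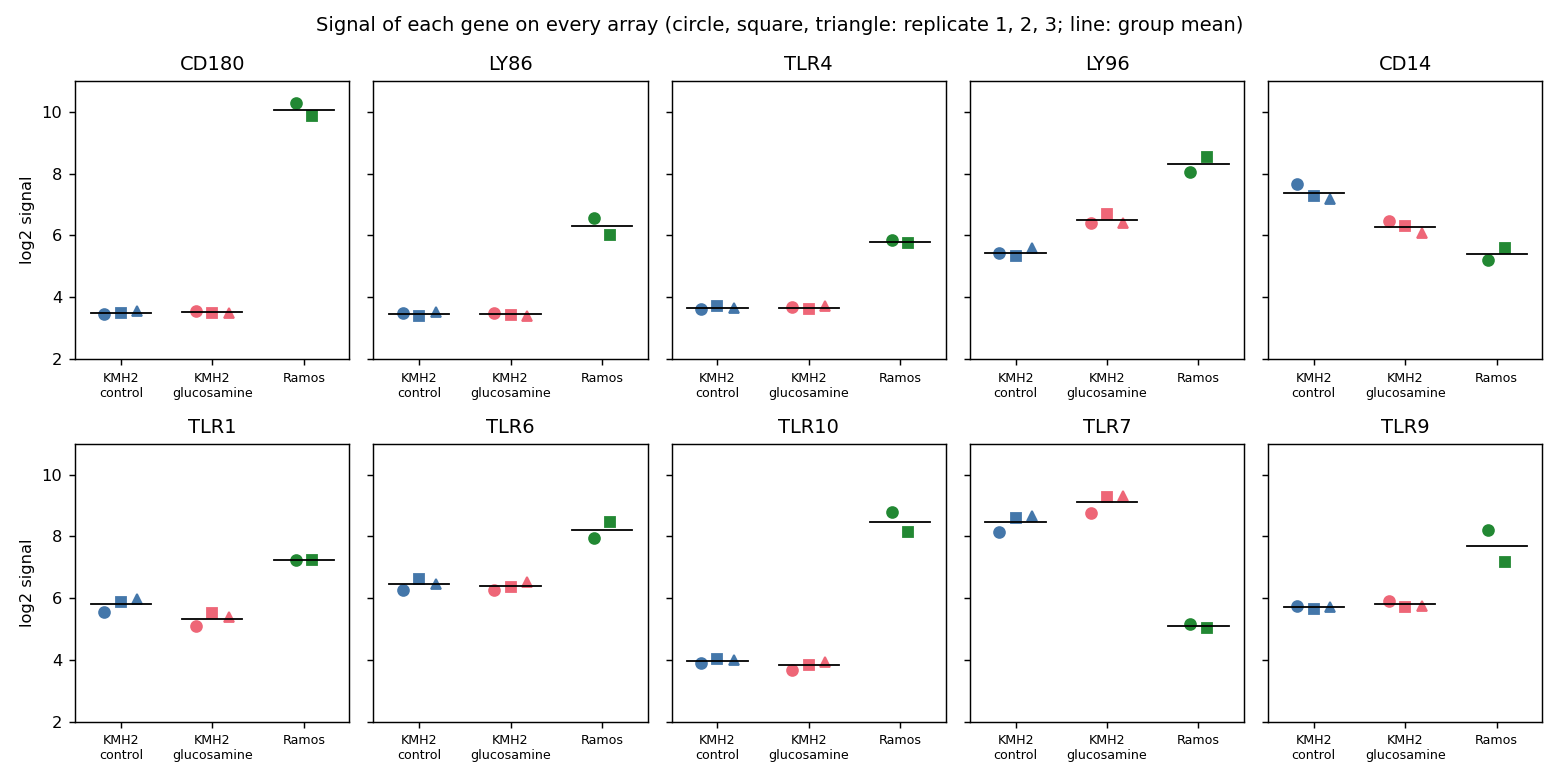
Log2 signal (vertical axis) of each of the 10 genes on every array, by group, with circles, squares and triangles for replicates 1, 2 and 3 and a line at the group mean. CD180, LY86, TLR4 and TLR10 lie at or below 4.04 on all KMH2 arrays and higher on both Ramos arrays, while TLR7 and CD14 are higher in KMH2.

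CD180 (probe set 8112428) differed most. On the KMH2 control arrays it read 3.46, 3.49 and 3.54, on the glucosamine arrays 3.55, 3.49 and 3.49, and on the Ramos arrays 10.29 and 9.86. The 6 KMH2 arrays sat together at the bottom and both Ramos arrays far above them. The Ramos mean of 10.08 ± 0.30 (SD, n = 2) exceeded the KMH2 control mean of 3.50 ± 0.04 (SD, n = 3) by 6.58 ± 0.12 (SE), a 95.6-fold difference of signal. LY86 (8116734), whose product MD-1 is needed for CD180 to reach the cell surface, moved the same way. It read 3.48, 3.41 and 3.52 in control, 3.50, 3.43 and 3.40 after glucosamine, and 6.58 and 6.01 in Ramos. Its Ramos level was higher by 2.82 ± 0.15 (SE, adjusted p = 1.17e-06, limma), a 7.08-fold difference, with no overlap of the lines.

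TLR4 (8157524) was likewise lowest in KMH2. It read 3.61, 3.72 and 3.65 in control, 3.67, 3.62 and 3.70 after glucosamine, and 5.84 and 5.76 in Ramos, a difference of 2.14 ± 0.07 (SE, adjusted p = 5.33e-08, limma). For CD180, LY86, TLR4 and TLR10 all 6 KMH2 arrays lay below the 25th percentile of the signals on the same array, and neither Ramos array did. No detection calls were analysed here, so whether these transcripts were present in KMH2 was not tested and their folds are folds of signal only. LY96 (8146934), the lipopolysaccharide-binding partner of TLR4, was well above that percentile on every array. It read 5.42, 5.32 and 5.59 in control and 8.07 and 8.56 in Ramos, a difference of 2.87 ± 0.16 (SE, adjusted p = 2.04e-06, limma), or 7.30-fold.

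CD14 (8114612) went the other way from its TLR4 partners. The control arrays read 7.68, 7.27 and 7.17 and the Ramos arrays 5.22 and 5.61, so that Ramos was lower by 1.96 (95% confidence interval of the difference -2.38 to -1.54, adjusted p = 4.33e-05, limma). CD14 is best known from monocytes, and other monocyte markers were looked at beside it. Their mean level over 10 measured markers was 4.90 to 4.93 in KMH2 control and 4.67 to 4.75 in Ramos. Of these 10, CSF1R (-2.08) and ITGAM (-1.69) were lower in Ramos as CD14 was, LYZ (0.64) and FCN1 (0.29) were higher, and 6 did not pass. The median difference of the 10 was 0.17, above 0. In KMH2 control LYZ (3.88), S100A8 (3.57), S100A12 (3.42), VCAN (3.59) and CD163 (3.87) had means under the arrays' lower quartiles (4.22 to 4.26). The mean level and the median difference of the list thus rest partly on signals this low. The part of the markers in the CD14 difference was not tested, and those named here were picked after their values were seen.

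The start regions of some of these genes are shown because CD180 and LY86, partners in 1 complex, and TLR4 were all higher in Ramos while CD14 was lower. Upstream sequence was found in RefSeq (build GRCh38.p14) for 6 of the 10 genes (CD180, LY86, CD14, TLR4, TLR6 and TLR9). Each line gives the 250 bases before the annotated start, 5′ to 3′ on the gene's strand, at chr5:67196800-67197049 (minus strand) for CD180, chr6:6588470-6588719 (plus) for LY86, chr9:117704153-117704402 (plus) for TLR4 and chr5:140633176-140633425 (minus) for CD14. Capitals mark matches to any of the 7 motifs searched.
CD180: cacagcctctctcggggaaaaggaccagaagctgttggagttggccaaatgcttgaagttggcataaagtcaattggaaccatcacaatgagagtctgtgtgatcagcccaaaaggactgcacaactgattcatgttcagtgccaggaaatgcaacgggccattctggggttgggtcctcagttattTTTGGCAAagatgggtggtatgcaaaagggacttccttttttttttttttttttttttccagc
LY86: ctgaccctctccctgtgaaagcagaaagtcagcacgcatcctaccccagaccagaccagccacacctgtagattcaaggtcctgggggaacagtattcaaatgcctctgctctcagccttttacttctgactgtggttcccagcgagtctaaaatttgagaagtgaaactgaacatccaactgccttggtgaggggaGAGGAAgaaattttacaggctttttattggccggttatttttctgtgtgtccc
TLR4: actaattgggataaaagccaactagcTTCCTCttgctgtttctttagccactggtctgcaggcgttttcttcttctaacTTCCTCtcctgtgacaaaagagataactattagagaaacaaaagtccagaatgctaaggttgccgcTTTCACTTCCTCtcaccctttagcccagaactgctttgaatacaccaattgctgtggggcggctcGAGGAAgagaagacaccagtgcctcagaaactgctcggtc
CD14: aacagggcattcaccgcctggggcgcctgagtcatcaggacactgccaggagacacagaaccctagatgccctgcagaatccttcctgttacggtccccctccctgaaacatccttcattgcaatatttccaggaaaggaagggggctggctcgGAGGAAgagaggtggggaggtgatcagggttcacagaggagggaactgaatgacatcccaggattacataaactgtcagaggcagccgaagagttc

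The motifs, searched on both strands, were a PU.1-type core (GAGGAA), an octamer (ATGCAAAT), an EBF1-type site (TCCC and GGGA with any 2 bases between), an interferon response motif (GAAA and GAAA with any 2 bases between), a composite ETS-IRF motif (GGAA and GAAA with any 2 bases between), an NF-kappaB-type site (GGGA and CC with any 4 bases between) and a C/EBP-type site (TTGCNNAA). The TLR4 window held 4 PU.1-type cores, 1 of them overlapping an ETS-IRF motif 105 to 96 bases upstream. Among all 35116 windows of this kind 23.6% held a PU.1-type core and 2.41% an ETS-IRF motif. LY86 and CD14 each had 1 PU.1-type core (53 to 48 and 96 to 91 bases upstream), and CD180 had 1 C/EBP-type match (63 to 56 bases upstream), a motif found in 9.05% of windows. Of the genes not printed, TLR9 held an octamer 101 to 94 bases upstream, found in 1.63% of windows, with 2 PU.1-type cores, and TLR6 held 1 such core. A match is a run of letters, not a shown binding site.

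TLR10, TLR1 and TLR6 are neighbouring genes in that order, per the RefSeq gene table, and all of them were higher in Ramos. TLR10 (8099826) read 3.91, 4.04 and 3.99 in control and 8.79 and 8.16 in Ramos, a difference of 4.49 ± 0.17 (SE, adjusted p = 1.58e-07, limma), or 22.5-fold. This was the largest difference of the 10 genes after CD180, and no KMH2 array came within 4 log2 units of a Ramos array. TLR1 (8099834) read 5.57, 5.88 and 5.96 in control and 7.23 on each Ramos array, a difference of 1.43 (95% confidence interval 1.08 to 1.78). TLR6 (8099841) read 6.26, 6.62 and 6.47 in control and 7.95 and 8.48 in Ramos, a difference of 1.77 (1.38 to 2.15). TLR1 and TLR6 are close in sequence, and their probe sets may capture RNA of each other.

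The endosomal receptors split. TLR7 (8166059), the receptor for single-stranded RNA, was high in KMH2, at 8.14, 8.59 and 8.64 in control, and read 5.18 and 5.02 in Ramos. Ramos was thus lower by 3.36 (95% confidence interval -3.82 to -2.89, adjusted p = 3.14e-06, limma), a 10.3-fold difference. TLR9 (8087852), the receptor for CpG DNA, read 5.74, 5.66 and 5.72 in control and 8.22 and 7.19 in Ramos. Both Ramos arrays stood above all KMH2 arrays, but they differed by 1.04 between themselves, more than for any other of the 10 genes. The difference between the lines was 2.00 ± 0.25 (SE, adjusted p = 0.00025, limma), and it was 2.51 without Ramos replicate 2 and 1.48 without Ramos replicate 1.

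The second comparison asked how KMH2 cells responded to glucosamine. Of the 10 genes LY96 and TLR7 rose, CD14 and TLR1 fell, and 6 did not pass (limma, 6 KMH2 arrays). Across the array 25.8% of probe sets passed, 11.9% higher and 13.9% lower, and in 40.9% the arrays of the groups did not overlap, as they did not for 4 of the 10 genes. The shares among the members are therefore not far from those of the whole array, and the median difference was -0.01 against 0.01 over all probe sets. What set LY96 and CD14 apart from most genes was the size of the change, since only 0.391% of probe sets rose and 0.438% fell by 1 log2 unit or more.

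**Figure D2:**
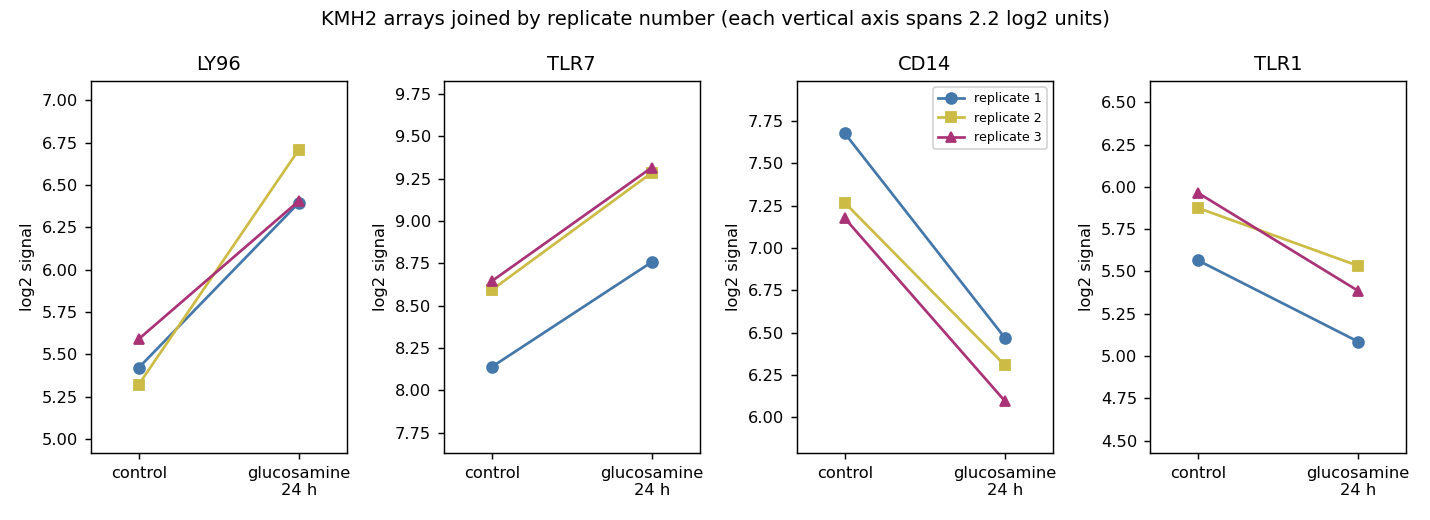
Log2 signal (vertical axis, 2.2 units in every panel) of the 4 genes past the threshold in KMH2 control and after 24 h of glucosamine, with lines joining arrays of the same replicate number. LY96 and TLR7 rise and CD14 and TLR1 fall in each of the 3 replicates.

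LY96 rose from 5.42, 5.32 and 5.59 to 6.39, 6.71 and 6.41. The groups did not overlap, and the gain by replicate number was 0.97, 1.39 and 0.81. The mean moved from 5.44 ± 0.14 to 6.50 ± 0.18 (SD, n = 3 per group), a 2.08-fold rise (1.06 ± 0.10, SE, adjusted p = 0.000276, limma). CD14 fell from 7.68, 7.27 and 7.17 to 6.47, 6.31 and 6.10, again without overlap, with paired differences of -1.21, -0.96 and -1.08 in replicates 1, 2 and 3. That is a 2.12-fold fall of the mean, from 7.37 ± 0.27 to 6.29 ± 0.19 (SD, n = 3 per group, adjusted p = 0.00102, limma). Among the monocyte markers CSF1R rose by 0.54 while CD14 fell, none of the other 9 measured passed, and the list's mean level was 4.94 to 5.00 on the glucosamine arrays. Of 8 Hodgkin markers 7 also fell (array 13.9%), to a mean level of 8.30 to 8.41. Of 9 B-cell markers 1 rose (array 11.9%) and 2 fell, and their mean level was 6.23 to 6.37. The part of all these markers in the LY96 and CD14 changes was not tested. The co-receptors of TLR4 thus changed in opposite directions, while TLR4 itself gave 3.66 ± 0.06 before and 3.66 ± 0.04 after treatment (SD, n = 3 per group). The 95% confidence interval for the TLR4 change ran from -0.12 to 0.13.

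TLR7 and TLR1 changed less, and without pairing by replicate number their calls were less firm. TLR7 rose from 8.14, 8.59 and 8.64 to 8.76, 9.29 and 9.32, by 0.62, 0.69 and 0.67 in replicates 1, 2 and 3, a 1.58-fold rise (adjusted p = 0.0268, limma). TLR1 fell from 5.57, 5.88 and 5.96 to 5.09, 5.53 and 5.39, and its 3 paired differences were -0.48, -0.34 and -0.58, a 1.38-fold fall (adjusted p = 0.0358, limma). Replicate 1 was the lowest array of its group for both genes, and the groups did not overlap for either. The TLR7 call was lost without control replicate 1 (adjusted p = 0.0726) or 2 (0.0517) and without glucosamine replicate 2 (0.0867) or 3 (0.0941), over a range of 0.000156 to 0.0941 across alternatives in limma. The TLR1 call was lost without control replicate 2 (0.117) or 3 (0.126) and without glucosamine replicate 1 (0.065) or 3 (0.077), over a range of 0.0013 to 0.126. Both calls were also lost with all 33297 probe sets tested (TLR7 0.0668, TLR1 0.0814) and with all 8 arrays sharing the spread (0.0542 and 0.0654), and that of TLR7 with a trended prior (0.0657). Leaving out any single array thus left 1 or both of these genes uncalled, while LY96 and CD14 stayed called in every alternative. All these losses are from fits that do not pair the arrays. With the replicate number as a block, the adjusted p was 0.000156 for TLR7 and 0.0013 for TLR1 (limma). Single arrays were not left out of that paired fit. It takes the replicate numbers as pairs, although only the arrays numbered 1 stood apart in deviating together.

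The other genes gave overlapping groups. CD180 and LY86 stayed at the low KMH2 level, with differences bounded at 95% confidence by -0.11 and 0.13 and by -0.16 and 0.10 on the log2 scale. TLR6 differed by -0.06 (-0.30 to 0.17), TLR9 by 0.09 (-0.06 to 0.24) and TLR10 by -0.15 (-0.32 to 0.02), the last with arrays at 3.69, 3.85 and 3.94 after glucosamine. A fall of CD180, LY86, TLR4 or TLR10 could hardly be seen from signals this low, so for them the intervals bound a rise better than a fall.

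**Figure D3:**
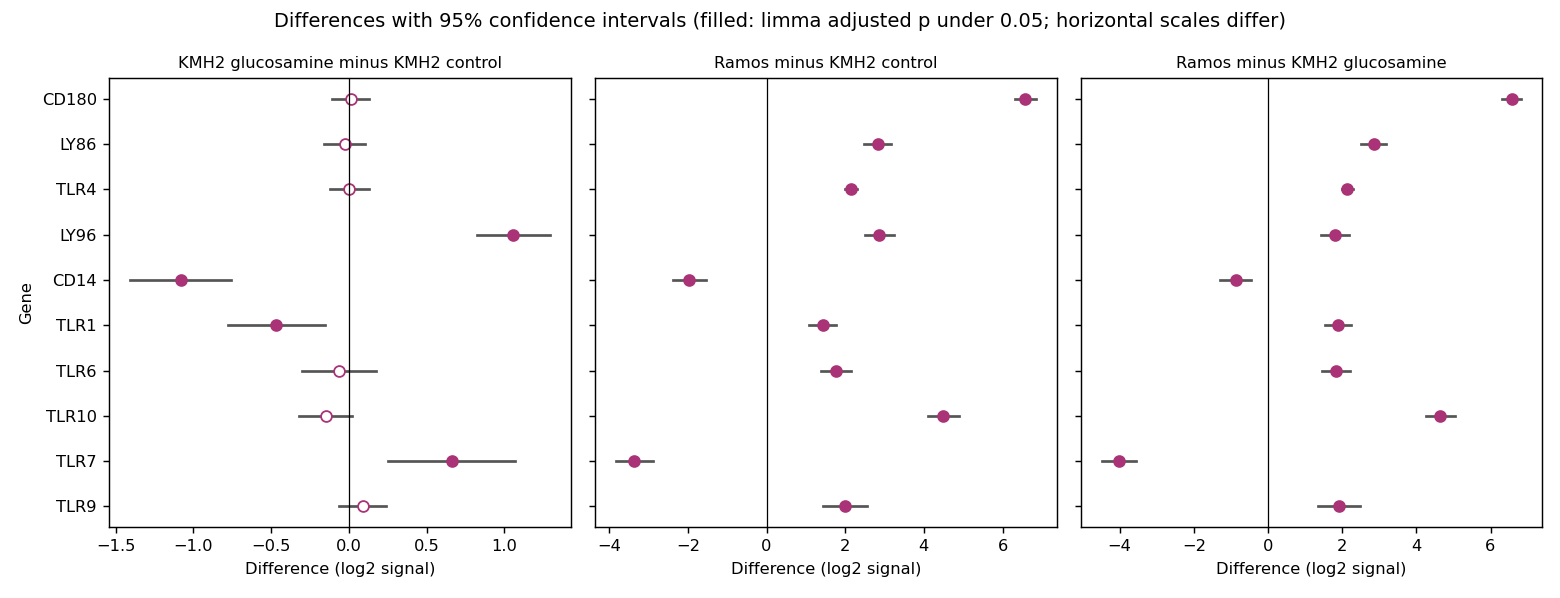
Differences of log2 signal (horizontal axis) for the 10 genes in 3 comparisons, with 95% confidence intervals from limma and filled points where the adjusted p is under 0.05. Glucosamine differences lie within about 1.1 of 0, and those between the lines reach 6.58 for CD180 and, against treated KMH2, -4.02 for TLR7.

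Set in order of level, the 3 groups took several patterns. Against treated KMH2 the same 8 genes were higher and the same 2 lower in Ramos, where 43.5% of probe sets passed, 22.5% higher and 21% lower, and 60.2% did not overlap. Of the 10 genes 8 were higher by at least 1 log2 unit and TLR7 was lower by as much, sizes passed by 6.82% and 8.24% of probe sets. LY96 rose from KMH2 control through glucosamine to Ramos (5.44, 6.50 and 8.31), and CD14 fell in that order (7.37, 6.29 and 5.41), with each step past the threshold. The step from glucosamine-treated KMH2 to Ramos was 1.81 ± 0.16 (SE, adjusted p = 3.21e-05, limma) for LY96 and -0.88 ± 0.18 (SE, adjusted p = 0.00457, limma) for CD14, the latter not past the threshold with array weights (0.0629), within 0.00211 to 0.0629 across alternatives. TLR1 was lowest after glucosamine and TLR7 highest, so that for both genes treated KMH2 lay further from Ramos (1.90 and -4.02) than untreated KMH2 did (1.43 and -3.36). For CD180, LY86, TLR4, TLR6, TLR9 and TLR10 the KMH2 groups were neighbours that did not differ beyond their spread, both below Ramos. These comparisons share arrays, so their differences are set side by side only.

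The other genes of the pathway were taken from 7 lists by role, 75 genes in all, of which 67 had a probe set with 1 symbol. Between the lines 24 were higher and 23 lower in Ramos and 20 did not pass, where 22.7% of all probe sets were higher and 21.2% lower. After glucosamine 15 rose, 4 fell and 48 did not pass, where 25.8% of all probe sets passed (11.9% higher and 13.9% lower). The share called in either direction was near that of the array, but a larger share rose and a smaller share fell. The lists below are read against these same shares, and no list was tested against other genes. Median differences were 0.09 and 0.06 on the log2 scale, against 0.06 and 0.01 over all probe sets. With all 8 arrays sharing the spread, the glucosamine calls of LGMN, MYD88, IRAK2, TRAF6, IRF7, OTUD7B, DUSP1, SIGIRR and UNC93B1 were lost (adjusted p from 0.0725 for OTUD7B to 0.557 for IRF7, limma).

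**Figure D4:**
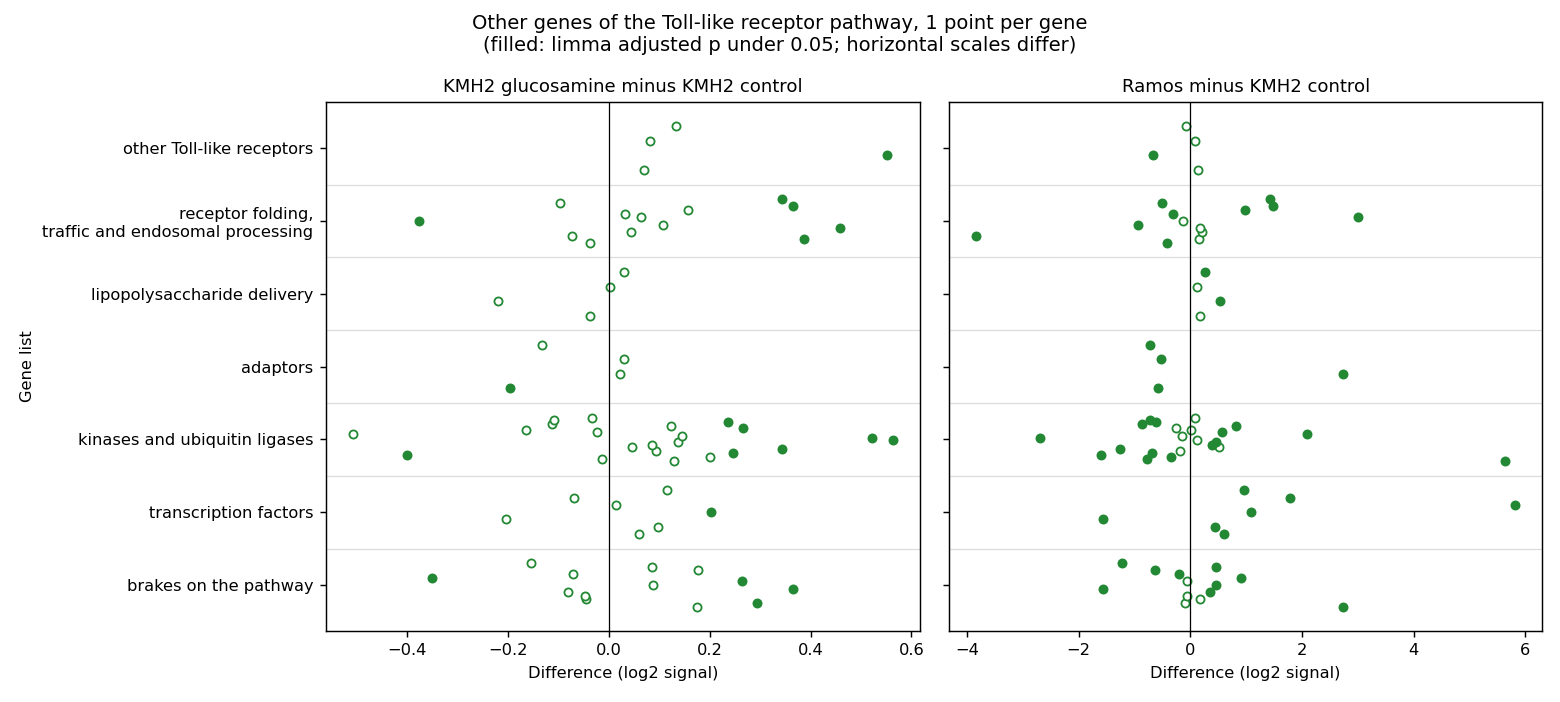
Differences of log2 signal (horizontal axis) of the other pathway genes by list, 1 point per gene, after glucosamine in KMH2 and between Ramos and KMH2 control, filled where limma's adjusted p is under 0.05. All points after glucosamine lie within 0.6 of 0, while IRF8 and BTK exceed 5 between the lines.

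Of the other 4 Toll-like receptors TLR3, the receptor for double-stranded RNA, passed the threshold both after glucosamine and between Ramos and KMH2 control. It read 5.92, 5.84 and 5.83 in control, 6.27, 6.55 and 6.42 after glucosamine, and 4.97 and 5.43 in Ramos. It rose by 0.55 after glucosamine (adjusted p = 0.00134, limma) and was lower in Ramos than in control by 0.66 (-0.66, adjusted p = 0.00471), so it shared the direction of TLR7 in both comparisons. TLR2, the partner of TLR1 and TLR6, was 4.27 ± 0.04 in control (SD, n = 3) and did not pass in either comparison (0.07 after glucosamine and 0.14 between the lines). TLR5, the flagellin receptor, was 4.24 ± 0.07 (0.08 and 0.08), and TLR8, the neighbour of TLR7 on the X chromosome, was 3.82 ± 0.03 (0.13 and -0.08), and neither passed in these comparisons. TLR8 lay below the 25th percentile of the same array on all 6 KMH2 and both Ramos arrays. TLR5 did so on 2 KMH2 and both Ramos arrays, and TLR2 on 1 KMH2 array. At signals this low, neither a small difference nor the lack of 1 can be read with confidence. TLR8 did pass after glucosamine with array weights (adjusted p = 0.0456, limma). It was also lower in Ramos than in treated KMH2 (-0.21, adjusted p = 0.0286), a call lost without glucosamine replicate 2 (0.0742) or 3 (0.0734) or Ramos replicate 2 (0.109), over a range of 0.00523 to 0.166.

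Genes that fold, carry and trim the receptors went both ways between the lines, with 4 higher and 5 lower in Ramos of 13 measured (array 22.7% and 21.2%). NRROS, which encodes a leucine-rich repeat protein, was higher by 3.00, or by 2.60 without Ramos replicate 1 and 3.41 without Ramos replicate 2. SLC15A4, an endosomal transporter that TLR7 and TLR9 signalling needs, was higher by 1.48. The protease gene CTSB was lower by 3.84 (-3.84) and HSP90B1, the chaperone gp96 of most Toll-like receptors, by 0.94 (-0.94). UNC93B1, which escorts the endosomal receptors and was picked for mention after its values were seen, was higher by 1.43 in the probe set used. The other 2 probe sets that the annotation pairs with this symbol gave only 0.21 each, and the mean of all 3 gave 0.62. Whether those 2 capture RNA of this gene was not tested. That 1.43 became 1.07 without Ramos replicate 1 and 1.79 without Ramos replicate 2. After glucosamine 4 of the 13 rose and 1 fell (array 11.9% and 13.9%). CNPY3, a co-chaperone of Toll-like receptors, rose by 0.39 (adjusted p = 0.00196, limma), SLC15A4 by 0.37 and the cathepsin gene CTSS by 0.46, and the endosomal protease gene LGMN fell by 0.38. UNC93B1 rose by 0.34 (adjusted p = 0.0185, limma), a call lost without control replicate 2 (0.0612) or glucosamine replicate 2 (0.0524) or 3 (0.0711), and with the mean of its probe sets (0.294). The other 2 probe sets annotated with this symbol gave -0.08 and -0.0025.

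Of only 4 adaptor genes measured, 3 were lower and 1 was higher in Ramos (array 21.2% and 22.7%). MYD88, the adaptor of nearly all Toll-like receptors, was lower by 0.58 (-0.58), TIRAP, which bridges MYD88 to TLR4, by 0.73 (-0.73) and TICAM1, the adaptor of TLR3, by 0.52 (-0.52), while SCIMP, a lymphoid adaptor, was higher by 2.74. After glucosamine MYD88 alone passed, at -0.20 (adjusted p = 0.0295, limma). That call was lost when any single array other than glucosamine replicate 2 was left out (adjusted p from 0.0507 to 0.112). Of 4 genes for lipopolysaccharide delivery and related ligands, HMGB1 (0.52) and TREM1 (0.27) were higher in Ramos and none passed after glucosamine. TREM1 read 4.217, 4.155 and 4.248 in control, each under the lower quartile of its array (4.221, 4.245 and 4.263). In Ramos it read 4.39 and 4.56, so its small difference cannot be read with confidence. The TREM1 call was lost without control replicate 1 (0.0513) or 2 (0.0728) or Ramos replicate 2 (0.0952), over a range up to 0.123.

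Among 22 measured kinase and ubiquitin ligase genes 6 were higher, a share near that of the array (22.7%), and 9 lower (array 21.2%) in Ramos. BTK, the B-cell kinase that also acts in Toll-like receptor signalling, was higher by 5.64 and TBK1, a kinase that activates IRF3, by 0.81. BTK read 3.91, 3.90 and 3.99 in control, under the arrays' lower quartiles (4.22 to 4.26). Whether its transcript was present in KMH2 was not tested. PELI2, a ligase of IRAK proteins, was lower by 2.70 (-2.70) and TRAF3, a ligase of the interferon branch, by 0.87 (-0.87). After glucosamine 6 rose and 1 fell (array 11.9% and 13.9%), with PELI1 up by 0.56 (adjusted p = 0.000288, limma), PELI2 by 0.52, IRAK2, a kinase of the receptor complex, by 0.34 and TRAF6, the ligase downstream of it, by 0.24. The TRAF6 call was lost without control replicate 3 (0.0596) or glucosamine replicate 2 (0.0505), and across all alternatives the adjusted p reached 0.193.

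Of 7 transcription factor genes 6 were higher and 1 was lower in Ramos (array 22.7% and 21.2%). IRF8, which drives B-cell and myeloid programs, was higher by 5.82 (adjusted p = 2.78e-09, limma), SPI1 (PU.1) by 1.79 and its relative SPIB by 0.96. IRF8 read 4.25, 4.15 and 4.16 in control, near the arrays' lower quartiles (4.22 to 4.26). Whether the IRF8 transcript was present in KMH2 was not tested. IRF5, an effector of TLR7 and TLR9 signalling, was lower by 1.56 (-1.56), as TLR7 was. After glucosamine IRF7 passed, with a rise of 0.20 (adjusted p = 0.044, limma), and that call was lost when any single array other than glucosamine replicate 3 was left out (adjusted p from 0.085 to 0.132), and across all alternatives the adjusted p reached 0.557.

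Of 13 genes that restrain the pathway 5 were higher and 4 lower in Ramos (array 22.7% and 21.2%). The deubiquitinase gene CYLD was higher by 2.73 and TNFAIP3 (A20), an inhibitor of NF-kappaB signalling, by 0.90, while OTUD7B was lower by 1.55 (-1.55) and TRAFD1 by 1.23 (-1.23). After glucosamine 3 rose and 1 fell, a share near the 25.8% called on the array. TNFAIP3 fell by 0.35 (adjusted p = 0.00357, limma), OTUD7B rose by 0.37, the phosphatase gene DUSP1 by 0.29 and SIGIRR by 0.26. The call was lost for SIGIRR without any single array other than glucosamine replicate 2 (adjusted p from 0.081 to 0.127), for OTUD7B without control replicate 3 (0.0636), and for DUSP1 without control replicate 2 (0.0702) or 3 (0.0613) or glucosamine replicate 3 (0.0519).

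The genes whose levels followed each receptor most closely over the 8 arrays were found by Pearson's r among 4854 genes with a range of at least 1 log2 unit. The arrays fall into 2 lines, so these values mostly restate the difference between them and carry no p. CD180 was most like RASGRP3, a Ras activator of B cells (r = 0.99995), and CD84, a SLAM family receptor (0.9998). TLR10 was most like SASH3, a lymphocyte signalling adaptor (0.9995), and CD72, a B-cell co-receptor (0.9990), and TLR4 like MME, the germinal centre marker CD10 (0.9997), and KDM5B (0.9997). The nearest genes were MACC1 and CTPS2 for LY86, FAM81A and ABCA6 for TLR9, STAP2 and ELAPOR2 for TLR7, ZNF319 and GPR174 for TLR6, and PMS1 and CCDC77 for TLR1. LY96, which takes 3 levels, was most like CCNB1IP1 (0.998) and MPZL3 (0.995), and CD14, which takes 3 levels in the opposite order, like ENO3, the muscle enolase gene (0.993), and FAM120C (0.990).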

How the data were processed

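Total RNA of 8 samples was labelled with biotin and hybridised to Affymetrix HuGene-1_1-st-v1 array strips, per the labels' protocols. The deposited values are log2 signals per probe set, a unit read from the values (1.94 to 13.21, none missing). The summarization and normalization steps are not given in the sources used here. Gene symbols came from GEO's platform annotation, which can be old, and the 19181 probe sets with 1 symbol were tested (2055 had several and were not named). All 10 genes matched RefSeq by Entrez identifier.

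Differences were tested with limma 3.58.1 in R 4.3.3 (lmFit, eBayes, two-sided, Benjamini-Hochberg over all tested probe sets, threshold 0.05), on the 6 KMH2 arrays for glucosamine and on all 8 arrays in 3 groups for Ramos. The fits were tested on simulated data. The number of arrays limits the precision. Replicates of KMH2 are biological per the design text, and whether the Ramos arrays come from separate cultures is not given, so p-values may measure technical spread. Deviations of same-numbered KMH2 arrays correlated at 0.46, 0.23 and 0.23, all above 0.1, so the numbers were taken to pair the samples. Differently numbered arrays ranged from -0.37 to 0.25 (control 2 with glucosamine 3), so only number 1 stood apart. These values do not show that numbers 2 and 3 are pairs. A fit with the replicate number as a block is an alternative.

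The members and lists were chosen with earlier results of these data known. Besides the 10 genes, the text names in each list and comparison up to 4 genes past the threshold with the smallest p, the other Toll-like receptors, and the 2 most alike genes for each member that passed with a difference of at least 1. Other settings were quantile normalization, no dim probe sets (mean below the table's median), all probe sets, array weights, a trended robust prior, the mean of a gene's probe sets, other sets of arrays, and leaving out arrays.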

Additional observations from a re-analysis of the deposited data

How the results depend on the processing

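For Ramos against KMH2 control, all 116 values of the 10 genes kept their direction and call under the alternatives run. Leaving out dim probe sets removed CD180, LY86, TLR4 and TLR10, so 4 members remained higher in both Ramos comparisons. With array weights 1 member, TLR7, was lower in Ramos than in treated KMH2. That comparison gave 6509 higher probe sets when the whole table was tested, against 4318. After glucosamine, 124 of 146 values kept direction and call, 13 lost the call (TLR1 or TLR7) and 9 changed sign in genes not called. Members called were 1 higher and 1 lower when the whole table was tested or when all 8 arrays shared the spread (998 probe sets higher and 1179 lower, against 2285 and 2671), and 1 higher with the trended prior. Leaving out single arrays gave 1 to 2 higher and 1 to 2 lower. With the replicate block, the paired fit, 2711 probe sets were higher and 3037 lower, TLR7 had adjusted p = 0.000156 and TLR1 0.0013 (limma), and no call of the 10 genes changed. Signs turned near 0 for CD180 with array weights (-0.0074) and without both replicate 1 arrays (-0.028), in which TLR4 gave -0.024 and TLR2 -0.00079. Leaving out single arrays gave -0.010 to 0.035 for CD180, -0.022 to 0.033 for TLR4 and -0.16 to 0.020 for TLR6. Quantile normalization turned TLR5 (-0.0012 against control, -0.081 against treated KMH2) and TLR2 (-0.013 against treated KMH2), and TLR5 ran from -0.017 to 0.016 against treated KMH2 without single arrays. The cause of these changes was not tested. Background in low signals limits folds for genes near the bottom of the scale.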

Other observations

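The Ramos arrays differed from each other more in some of these genes than in most probe sets. TLR9 was 1.04 higher on Ramos replicate 1 than on replicate 2 (8.22 against 7.19), a size exceeded by 2.31% of tested probe sets. TLR10 was higher by 0.63, LY86 by 0.56 and CD180 by 0.43 on replicate 1, whereas TLR6 was at -0.53, LY96 at -0.49 and CD14 at -0.39 in the same direction of subtraction. TLR1, TLR4 and TLR7 differed by -0.0066, 0.08 and 0.16. The median size over all tested probe sets was 0.16. Since the sources disagree on the treatment of 1 Ramos array, these values are given with no comparison to the KMH2 response.

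The protein-coding neighbour of TLR6 away from TLR1 is FAM114A1, which was chosen after its values were seen. Its level was 3.89 ± 0.11 (SD, n = 3) in KMH2 control and 3.83 ± 0.07 (SD, n = 2) in Ramos, with overlapping groups, beside the higher Ramos levels of TLR10, TLR1 and TLR6. FAM114A1 read at most 4.03 on any array, below the lower quartile of every array (4.22 to 4.34). Whether its transcript was present in either line was not tested.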
